A study of Macaca fascicularis with 2 samples.

Results

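The genes described here are the integrin and laminin genes of single cells from articular cartilage (AC) and from nucleus pulposus (NP), the core of the intervertebral disc, of cynomolgus monkeys, *Macaca fascicularis*. They were chosen by symbol, as *ITGA* or *ITGB* followed by digits or by 1 to 2 letters, or *LAMA*, *LAMB* or *LAMC* followed by a digit, and numbered 35 of the 21371 genes listed. There were 16 integrin alpha genes, 8 integrin beta genes, 4 laminin alpha genes, 4 laminin beta genes and 3 laminin gamma genes. 1 of the 8 beta genes, *ITGBL1*, encodes a secreted protein that resembles a beta chain and is not a receptor subunit, which leaves 23 integrin subunits. *ITGB3*, *ITGAD* and *LAMA5* were not analysed here.

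The animals were 2 male wild-type monkeys aged 3 years, and the labels name no treatment. AC came from a femoral condyle and NP from a lumbar disc, both were digested with enzymes, and live cells that carried a surface tag were sorted and pooled into 1 library. The labels list 3 tissue samples whereas the cells carry 4 tags (A951, A952, A953 and A954), and no source pairs a tag with a tissue, so levels were compared within tags and no tissue was assigned. Notochordal cells (NCs) were the cells with 5 or more reads of *KRT19*, a keratin, and 5 or more reads of *TBXT*, the transcription factor brachyury, and all remaining cells are called other cells. Because there was 1 library, cells are not replicates of a condition, and no test of a difference between NCs and other cells was made.

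Integrins are receptors made of 1 alpha and 1 beta chain that cross the cell membrane, bind the extracellular matrix outside the cell and connect to the actin skeleton inside it. The chain pair sets the ligand, which may be a collagen, a laminin or a protein with the RGD motif such as fibronectin. Laminins are secreted trimers of 1 alpha, 1 beta and 1 gamma chain that build basement membranes, the thin matrix sheets under epithelia and around muscle, fat and notochord. NCs are large vacuolated cells that remain from the embryonic notochord in the NP, whereas chondrocyte-like cells of the NP and articular chondrocytes sit in a matrix rich in collagen and aggrecan.

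Of 5653 cells kept, 310 were NCs and 5343 were other cells. NCs were 67 of 995 cells with the tag A951 (6.73%), 236 of 1125 with A952 (21.0%), 5 of 1377 with A953 (0.363%) and 2 of 2156 with A954 (0.0928%). Ratios between NCs and other cells were therefore computed within A951 and A952, and the values of the 5 and 2 NCs of the remaining tags are given beside them for the higher and lower integrin and laminin genes and for some others. The median number of reads was 154155 in NCs and 184588 in other cells of A951, and 191336 and 175762 in A952, so NCs had fewer reads per cell in A951 and more in A952. No cell number occurred under more than 1 tag.

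The name of the cells was checked against other markers. All 10 NC markers analysed were at least 2-fold higher in NCs in both tags, where 16.6% of all genes compared were. *CDH2*, which encodes N-cadherin, was among the 10. It had 127 against 0.843 reads per 1000000 reads (rpm) in A951 and 120.5 against 2.94 rpm in A952. The paper that reported these data named *C3orf49*, *APOE*, *SRGN* and *NRN1* as markers from cells that include these, so they are no independent check. Since the rule used *KRT19* and *TBXT*, these 2 genes are no check. Other cells contained a smaller amount of the same RNA, and the 10 markers summed to 190.5 rpm in other cells of A951, 708 rpm in A952, 131 rpm in A953 and 92.4 rpm in A954. At the edge of the rule were 85 cells with 5 or more reads of 1 of the 2 genes and fewer of the other, and 13 NCs with 5 to 9 reads of either gene. At least 1 read of *TBXT* was found in 10.4% of other cells, so a share of cells with 1 read is not read as a share that expresses a gene, and shares are given from 5 reads except where 1 read is stated. Shares given without a tag pool the 4 tags, where most NCs came from A951 and A952 and most other cells from A953 and A954, and the plot of shares gives them within tags.

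Levels in rpm are the summed reads of a gene over the summed reads of all cells of the group. A gene was counted as higher or lower where its level in NCs differed at least 2-fold in the same direction in both A951 and A952, among genes at 1 rpm or more over all cells. The labels name 1 NP sample, so A951 and A952 may hold cells of the same disc. Agreement between these tags is therefore not agreement between samples known to be separate. Of the 35 integrin and laminin genes 29 passed this limit, and 6 did not (*ITGA8*, *ITGAL*, *ITGAM*, *ITGAX*, *ITGB2* and *ITGB6*). In NCs 4 genes were higher, namely *ITGB8*, *ITGA3*, *LAMC1* and *LAMA4*, or 13.8% of the 29, where 16.6% of all 10926 genes compared were higher by the same rule. 7 genes were lower, namely *ITGBL1*, *ITGA2*, *ITGA10*, *ITGA11*, *LAMC3*, *ITGB7* and *ITGA4*, or 24.1%, where 10.9% of all genes were lower. The remaining 18 were neither. The median log2 ratio of the 29 genes was -0.04, against 0.21 over all genes. The share of higher genes was thus close to that of all genes, and the share of lower genes, on 7 genes, was above it.

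**Figure D1:**
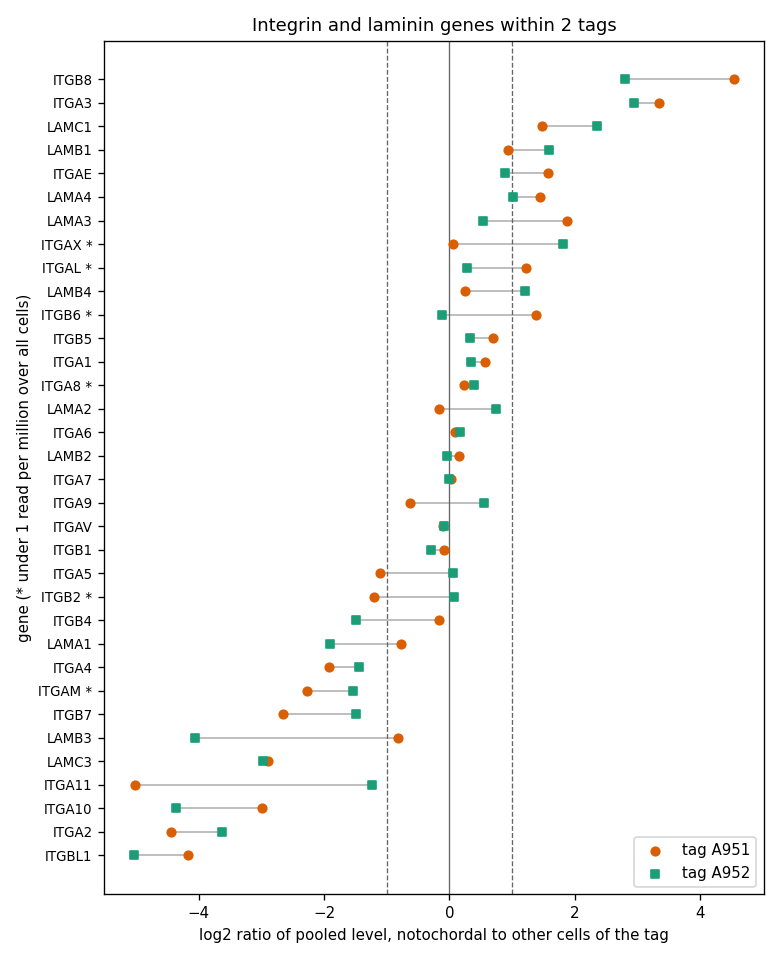
Log2 ratio of the pooled level in NCs to that in other cells for 34 of the genes (vertical axis), within tag A951 (circles) and A952 (squares), with dashed lines at 2-fold in each direction and asterisks on the 6 genes under 1 rpm. *ITGB8*, *ITGA3*, *LAMC1* and *LAMA4* lie beyond the right line in both tags, 7 genes at 1 rpm or more lie beyond the left line in both, and *ITGA11* and *LAMB3* differ widely between the tags.

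**Figure D2:**
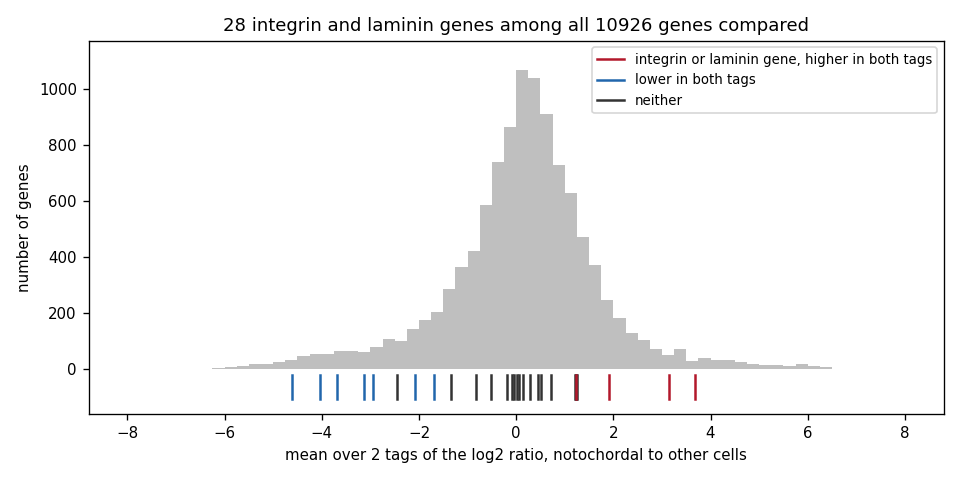
Number of genes (vertical axis) by mean log2 ratio over A951 and A952 (horizontal axis) for all 10926 genes compared, with marks for 28 integrin and laminin genes below the bars. The 4 higher genes lie between 1.22 and 3.67, the 7 lower genes between -4.61 and -1.69, and most of the rest near the centre of the distribution.

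The collagen-binding receptors pair *ITGB1* with 1 of *ITGA1*, *ITGA2*, *ITGA10* and *ITGA11*, and 3 of these 4 alpha chains were lower in NCs, where 10.9% of all genes were. *ITGA10* encodes the alpha chain that binds type II collagen in cartilage. Its level in NCs was 29.7 rpm in A951, 10.2 rpm in A952, 91.7 rpm in A953 and 15.2 rpm in A954, and in other cells it was 236, 211, 218 and 221 rpm in the same order. The NC values lay below every value of other cells, with 4 reads in the 2 NCs of A954. The share of all genes without such overlap was not counted, for *ITGA10* or for the genes below. In *ITGA10* the other cells of the 4 tags were close to each other. The log2 ratio was -2.99 in A951 and -4.37 in A952. With 5 or more reads, *ITGA10* was found in 6.77% of NCs (21 of 310, exact interval 4.24 to 10.2%) and in 58.5% of other cells (57.2 to 59.8%). The median number of *ITGA10* reads in cells with any was 2 in NCs and 36 in other cells.

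*ITGA2* encodes the chain of a receptor for type I collagen and laminin. NCs contained 13.5, 20.6, 31.7 and 7.61 rpm of *ITGA2* in the 4 tags in order, and other cells 296, 257, 247 and 177 rpm. Every NC value lay below every value of other cells, with 2 reads in the 2 NCs of A954. The log2 ratio was -4.45 in A951 and -3.64 in A952. Of the *ITGA2* reads in NCs, 58.5% lay in 5 cells, and 5.16% of NCs had 5 or more reads against 32.4% of other cells.

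*ITGA11*, a chain for fibrillar collagens, was lower by very different amounts in the 2 tags. Its level was 1.80 rpm in NCs of A951 and 27.1 rpm in A952, against 58.6 and 63.8 rpm in other cells, which gave log2 ratios of -5.02 and -1.24. In A953 the 5 NCs had 12.8 rpm and other cells 52.7 rpm, and in A954 the 2 NCs had 0 reads of *ITGA11*. None of the 67 NCs of A951 had 5 or more reads, which allows a share of up to 4.48%, whereas 16 of 236 did in A952 (6.78%). Of the *ITGA11* reads in NCs 57.0% lay in 5 cells, and *ITGA11* no longer passed the rule with cells thinned to 50000 reads or with a mean over cells in place of pooled reads. *ITGA1*, the chain for network-forming collagens, was not lower in A951 and A952, with 73.2 rpm in NCs and 49.6 rpm in other cells of A951, and 89.4 and 70.3 rpm in A952. Its log2 ratios were 0.56 and 0.35, but the few NCs of the remaining tags lay below other cells, with 51.1 and 87.5 rpm in A953 and 0 reads and 50.6 rpm in A954.

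The laminin-binding receptors pair *ITGB1* with *ITGA3*, *ITGA6* or *ITGA7*, and *ITGB4* with *ITGA6*. Of these only *ITGA3* was higher in NCs by the 2-fold rule. *ITGA3* had 27.4 rpm in NCs of A951, 22.7 in A952, 1.76 in A953 and 0 reads in A954, where other cells had 2.69, 2.95, 2.11 and 1.84 rpm. The difference thus stood in the 2 tags with most NCs, with log2 ratios of 3.35 and 2.94, and was not seen in the 5 NCs of A953, which had 4 reads of it. *ITGA3* was found with 5 or more reads in 9.68% of NCs (30 of 310, exact interval 6.63 to 13.5%) and in 1.31% of other cells (1.02 to 1.65%), so most NCs had fewer than 5 reads of it. In cells with any *ITGA3* read the median was 8 reads in NCs and 1 read in other cells. 5 NCs held 48.1% of its reads in that group, and without the 1 NC with most reads in each tag the log2 ratios were 2.36 and 2.70.

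*ITGA6* and *ITGA7* were close to equal in NCs and other cells of A951 and of A952. *ITGA6*, which pairs with either beta chain, had 141 rpm in NCs and 132 in other cells of A951, 157 and 139 in A952, and 116 and 63.0 in A953, with 0 reads in the 2 NCs of A954 and 86.6 rpm in its other cells. *ITGA7*, best known from muscle, had 4.18 and 4.10 rpm in A951, 4.23 and 4.25 in A952, and 3.09 and 4.07 in A953, with 0 reads in the 2 NCs of A954 and 4.35 rpm in its other cells. The log2 ratios were 0.09 and 0.17 for *ITGA6* and 0.03 and -0.01 for *ITGA7*. *ITGB4*, the hemidesmosome beta chain, had log2 ratios of -0.16 in A951 and -1.50 in A952, and 64.5% of its reads in NCs lay in 5 cells.

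The receptors for RGD proteins include *ITGA5*, *ITGA8* and *ITGAV* with *ITGB1*, and *ITGAV* with *ITGB5*, *ITGB6* or *ITGB8*. *ITGB8*, whose pair with *ITGAV* binds latent transforming growth factor beta, had the largest log2 ratio of the 29 genes by the mean over A951 and A952. The level of *ITGB8* was 19.0 rpm in NCs and 0.818 rpm in other cells of A951, and 13.0 and 1.86 rpm in A952. The 5 NCs of A953 had 0.441 rpm (1 read) against 0.625 rpm in other cells, and the 2 NCs of A954 had 171 rpm (45 reads) against 1.51 rpm. NCs thus exceeded other cells in 3 of the 4 tags, and the values of the last tags rest on 5 and 2 cells. The log2 ratio was 4.54 in A951 and 2.81 in A952, and 4.13 and 2.58 without the NC with most reads in each. *ITGB8* had 5 or more reads in 24 of 310 NCs (7.74%, exact interval 5.02 to 11.3%) and in 29 of 5343 other cells (0.543%, 0.364 to 0.779%).

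*ITGAV*, the alpha chain of that pair, did not differ 2-fold in A951 or A952. Its level was 346 rpm in NCs and 372 in other cells of A951, 338 and 358 in A952, 477 and 225 in A953, and 205 and 374 in A954. In A951 and A952 the NC values lay just below those of other cells, with log2 ratios of -0.10 and -0.08, and in the small groups of A953 and A954 they lay on opposite sides. *ITGB5*, its partner in a vitronectin receptor, was at a higher level in NCs in all 4 tags by less than 2-fold, with 291 and 181 rpm in A951, 207 and 166 in A952, 333 and 213 in A953, and 186 and 158 in A954. *ITGB5* had 5 or more reads in 61.0% of NCs and 51.5% of other cells.

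*ITGA5* and *ITGB1*, which form the fibronectin receptor, had the most reads of the alpha and the beta genes. *ITGB1*, the beta chain that most alpha chains share, had 700.2 rpm in NCs and 748 in other cells of A951, 615 and 757 in A952, 478 and 726 in A953, and 715 and 668 in A954. The groups lay within 2-fold of each other in each tag. *ITGA5* had 445 and 960.1 rpm in A951, 1026 and 989.7 in A952, 441 and 701 in A953, and 38.0 and 967 in A954. *ITGA5* was thus more than 2-fold lower in NCs of A951 and close to other cells in A952, with log2 ratios of -1.11 and 0.05. Of the rest, *ITGA8* and *ITGB6* were under 1 rpm over all cells, and no NC level of either was above 1.25 rpm.

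Of the genes known from leukocytes, *ITGA4* and *ITGB7* were lower in NCs. *ITGA4*, which pairs with *ITGB1* or *ITGB7*, had 1.39 rpm in NCs and 5.30 in other cells of A951, 1.46 and 3.98 in A952, 2.65 and 2.98 in A953, and 0 reads and 3.16 rpm in A954. Its log2 ratios were -1.93 and -1.45, but at least 1 *ITGA4* read was found in 26.5% of NCs and 27.8% of other cells. *ITGA4* had 5 or more reads in 0 of 310 NCs, which allows a share of up to 0.968%, and in 0.898% of other cells, so a difference in cells with many reads was not detectable, and 5 other cells held 22.0% of the *ITGA4* reads of that group. *ITGB7* had 2 reads in the NCs of A951, or 0.164 rpm (exact Poisson interval 0.0198 to 0.592), and 21 reads in A952, or 0.409 rpm, against 1.56 and 1.15 rpm in other cells, with 0 reads in the NCs of A953 and A954 against 1.18 and 2.74 rpm. With so few reads the log2 ratios of *ITGB7*, -2.67 and -1.49 with the 2 reads set to the floor of 3, rest on few reads. Neither *ITGA4* nor *ITGB7* was 2-fold lower in both tags by the mean over cells. *ITGAE*, which also pairs with *ITGB7*, had 40.1 rpm in NCs and 13.5 in other cells of A951, 27.9 and 15.1 in A952, 20.7 and 21.9 in A953, and 0 reads and 15.5 rpm in A954. With log2 ratios of 1.57 and 0.89 in A951 and A952 it lay just outside the rule, and it passed where NCs were defined by 5 or more reads of *KRT19* and *TBXT* added together.

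The alpha and beta chains *ITGAL*, *ITGAM*, *ITGAX* and *ITGB2* of the leukocyte receptors were each under 1 rpm over all cells. The leukocyte markers, 10 genes analysed, summed to 16.6 rpm in NCs and 22.8 rpm in other cells of A951, and to 38.8 and 19.8 rpm in A952. None of the 5 of them that passed 1 rpm was higher or lower in both tags, but the tags differed. The median log2 ratio of these 5 was -0.59 in A951 and 2.69 in A952. In A952 *LCP1* had 10.9 rpm in NCs and 0.665 in other cells, and *CD68* 9.47 and 15.4 rpm. *CD68* had the most reads of the leukocyte markers except in the NCs of A952, where it was *LCP1*, and *MS4A1* was at 0 in the NCs of both tags. *ITGA9* had log2 ratios of -0.63 and 0.55 in A951 and A952, but 57.9% of its reads in NCs lay in 5 cells, so neither direction is read from them.

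*ITGBL1*, the beta-like secreted protein, had the lowest log2 ratio of the 29 genes by the mean over A951 and A952. Its level was 5.98 rpm in NCs and 108 in other cells of A951, 3.88 and 127 in A952, 33.1 and 127 in A953, and 3.80 and 126 in A954. The NC values lay below those of other cells in every tag, with log2 ratios of -4.18 and -5.03. *ITGBL1* had 5 or more reads in 1.29% of NCs (4 of 310) and 37.2% of other cells.

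**Figure D3:**
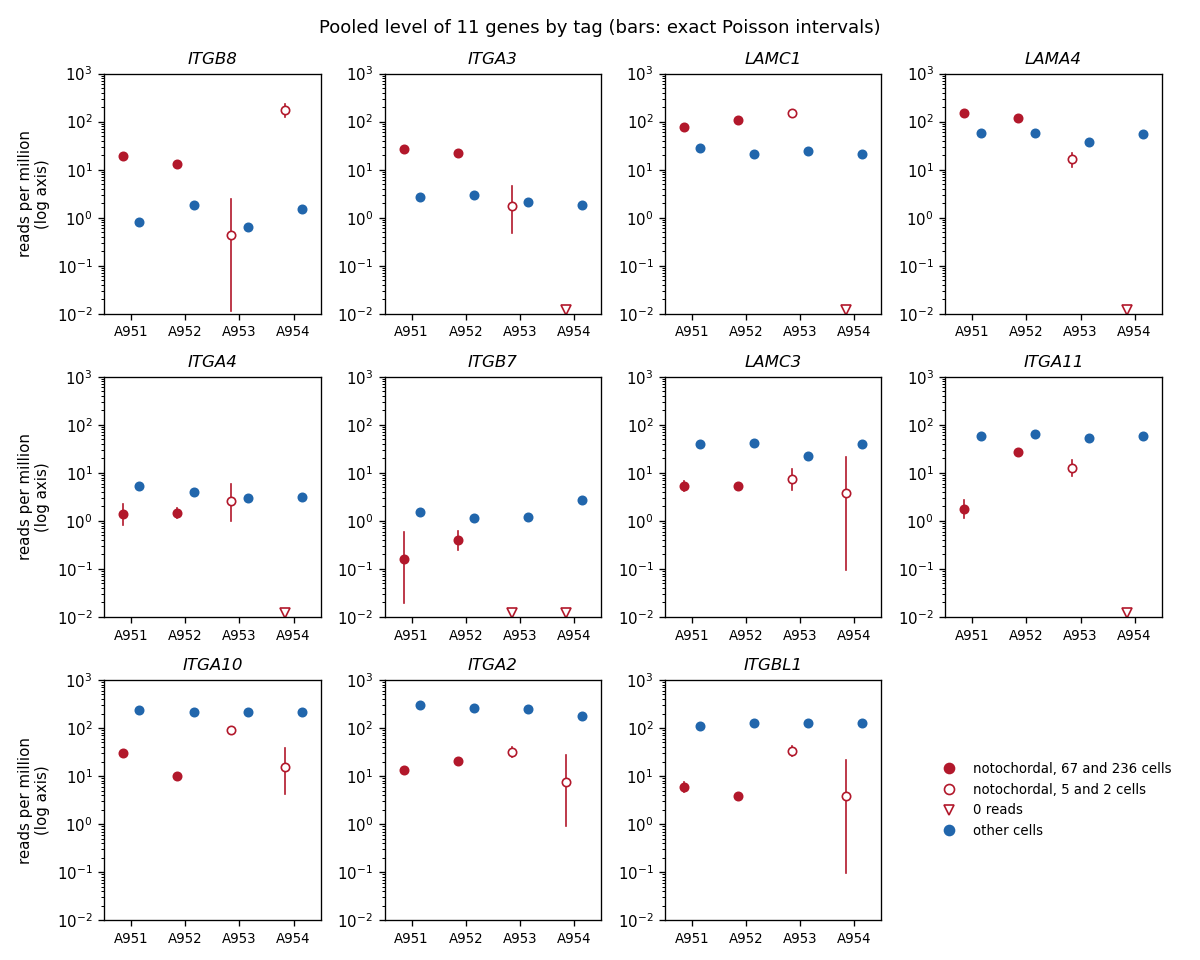
Pooled level in rpm (log axis) of the 4 higher and 7 lower genes in each tag, for NCs (red, open where a tag has 5 or 2 of them) and other cells (blue), with exact Poisson intervals for the reads where these exceed the symbols and triangles for 0 reads. *ITGA2*, *ITGA10*, *ITGBL1* and *LAMC3* are lower in NCs in all 4 tags, while *ITGB8*, *ITGA3* and *LAMA4* are higher in A951 and A952 but not in the 5 NCs of A953.

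Among the 11 laminin genes, 1 alpha and 1 gamma gene were higher and 1 gamma gene was lower. Of all genes 16.6% were higher and 10.9% lower, and counts this small are not read as a trait of laminins. *LAMC1* encodes the gamma chain of most laminins. Its level in NCs was 76.8 rpm in A951, 107 in A952 and 148 in A953, with 0 reads in the 2 NCs of A954, and in other cells it was 27.6, 20.8, 24.4 and 21.2 rpm. The NCs of the 3 tags with any read exceeded every value of other cells. The log2 ratio was 1.48 in A951 and 2.36 in A952, and *LAMC1* had 5 or more reads in 32.3% of NCs (exact interval 27.1 to 37.8%) and in 9.66% of other cells (8.88 to 10.5%). Median reads in cells with any were 23 in NCs and 2 in other cells, so the cells differed in *LAMC1* reads per positive cell as well as in the share of positive cells.

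*LAMA4* encodes the alpha chain of laminins in vessel walls, muscle and fat. Its level in NCs was 155 rpm in A951 and 119 rpm in A952 against 57.2 and 59.0 rpm in other cells, and in A953 the NCs lay lower, at 16.3 against 37.0 rpm. The 2 NCs of A954 had 0 reads of *LAMA4*, and other cells 54.8 rpm. The log2 ratio was 1.44 in A951 and 1.01 in A952, just inside the rule. *LAMA4* was found with 5 or more reads in 37.7% of NCs (117 of 310, exact interval 32.3 to 43.4%) and in 21.2% of other cells (20.1 to 22.3%). It no longer passed the rule in 4 of the alternatives, among them the mean over cells and thinning, nor without the NC with most reads in each tag, a step that lowers the level in NCs by construction, with ratios of 1.19 and 0.92.

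*LAMC3*, a gamma chain found in few tissues, was lower. Its level in NCs was 5.33, 5.20, 7.50 and 3.80 rpm in the 4 tags in order, and in other cells 39.7, 41.1, 22.5 and 39.0 rpm. The groups did not overlap, and the log2 ratios of -2.90 and -2.98 were alike. *LAMC3* had 5 or more reads in 6.77% of NCs and 14.3% of other cells.

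*LAMB2* had the most reads of the laminin genes and encodes a beta chain of many mature laminins. It had 285 rpm in NCs and 257 in other cells of A951, 265 and 273 in A952, 344 and 239 in A953, and 3.80 (1 read) and 198 in A954. Its log2 ratios were 0.15 and -0.04, and 54.8% of NCs and 54.7% of other cells had 5 or more reads of *LAMB2*. *LAMB1*, the alternative beta chain, had 16.1 and 8.45 rpm in A951 and 25.6 and 8.54 rpm in A952, and in A953 and A954 102 against 10.5 rpm and 0 reads against 2.37 rpm. With log2 ratios of 0.93 and 1.58 *LAMB1* lay just outside the rule, and it passed with the mean over cells and with thinning. *LAMA3* and *LAMB3*, an alpha and a beta chain of epithelial laminin, had log2 ratios in A951 and A952 of 1.87 and 0.54 for *LAMA3*, and -0.82 and -4.07 for *LAMB3*. Neither passed the rule, but *LAMA3* was higher with thinning, and *LAMB3* was lower with the mean over cells and relative to reads outside the 50 top genes. *LAMA1*, known from early basement membranes, had -0.77 and -1.91 and was lower with thinning, and *LAMA2*, the alpha chain of muscle, -0.16 and 0.74. *LAMB4* had 0.25 and 1.20, with 63.7% of its reads in NCs in 5 cells.

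**Figure D4:**
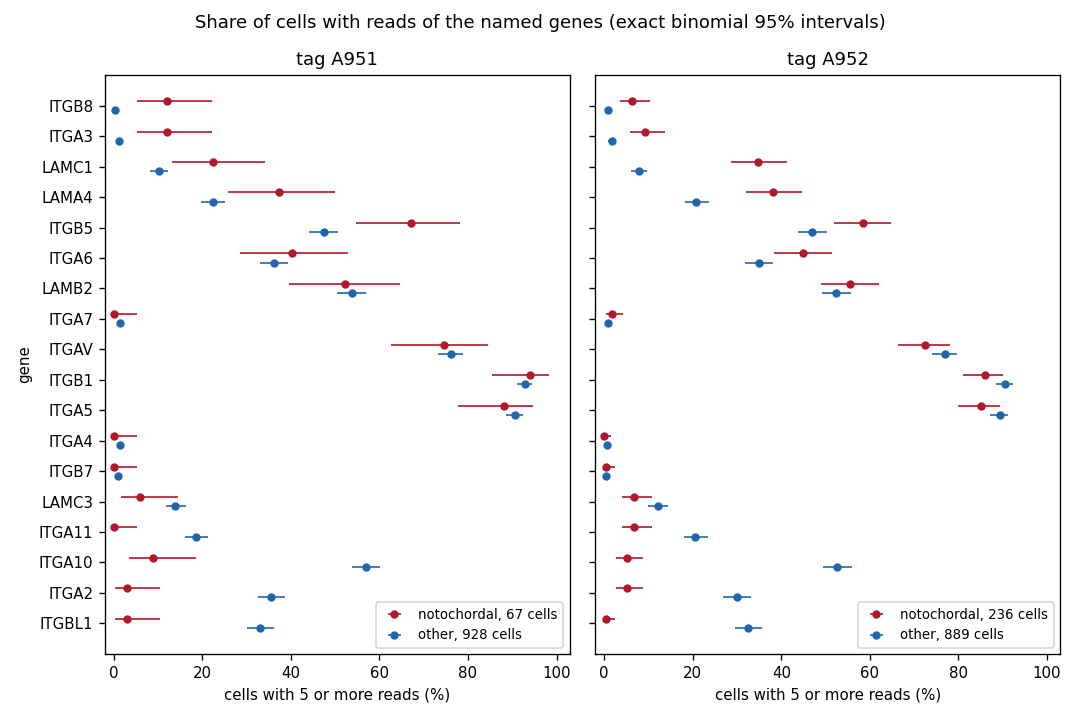
Share of cells with 5 or more reads (horizontal axis, percent) of the 18 named genes in NCs (red) and other cells (blue) of A951 and A952, with exact binomial 95% intervals that cover counting error only. The intervals of *ITGA10*, *ITGA2* and *ITGBL1* lie far apart in both tags, as do those of *ITGB8* and *ITGA3* at low shares, whereas *ITGAV*, *LAMB2*, *ITGB1* and *ITGA5* overlap in both tags.

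Because integrins act as pairs and laminins as trimers, the chains were also looked for in the same cell. With 5 or more reads of both chains, *ITGA10* and *ITGB1* were found together in 6.77% of NCs (exact interval 4.24 to 10.2%) and 56.0% of other cells (54.7 to 57.4%). *ITGA2* and *ITGB1* were found together in 5.16% and 31.2%, and *ITGA11* and *ITGB1* in 5.48% and 20.4%. In the other direction, *ITGA3* and *ITGB1* were found in 8.71% of NCs (5.82 to 12.4%) and 1.27% of other cells, and *ITGAV* and *ITGB8* in 7.10% (4.50 to 10.5%) and 0.487%. *ITGB1* and *ITGAV* were read in most cells of both groups, so these pair shares followed the share of the rarer chain. Within A951 and A952 the shares lay in the same direction, at 8.96% against 55.0% and 5.08% against 49.3% for *ITGA10* and *ITGB1*, 2.99% against 33.9% and 5.08% against 28.6% for *ITGA2* and *ITGB1*, 11.9% against 1.08% and 8.05% against 1.57% for *ITGA3* and *ITGB1*, and 11.9% against 0.216% and 5.51% against 0.562% for *ITGAV* and *ITGB8*. The fibronectin receptor pair *ITGA5* and *ITGB1* was found in 77.4% of NCs and 85.6% of other cells.

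The trimer of *LAMA4*, *LAMB2* and *LAMC1* was, of the 5 trimers given here, the one whose 3 chains were found together most often in NCs. With 5 or more reads of each chain it was found in 25 of 310 NCs (8.06%, exact interval 5.29 to 11.7%) and in 86 of 5343 other cells (1.61%, 1.29 to 1.98%). By tag the shares were 4.48% and 1.72% in A951, where the intervals overlapped (0.933 to 12.5% and 0.989 to 2.78%), and 8.90% and 0.900% in A952, where they did not. With cells thinned to 50000 reads, which left 299 NCs and 5147 other cells, at least 1 read of each chain was found in 12.7% and 2.91%.

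**Figure D5:**
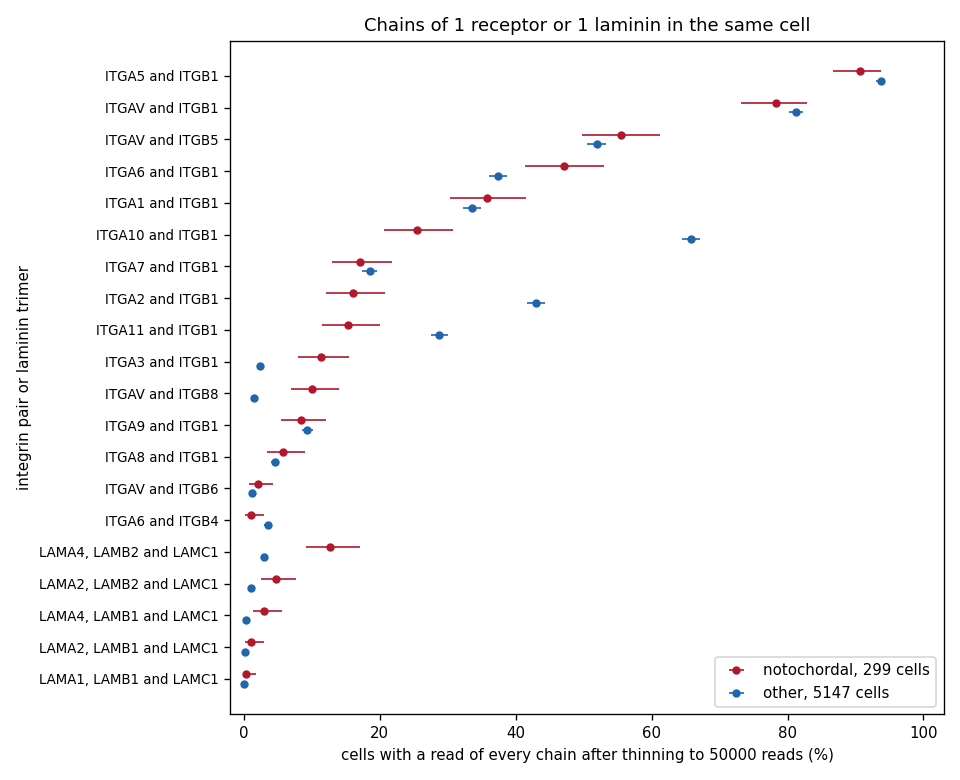
Share of cells (horizontal axis, percent) with at least 1 read of every chain of an integrin pair or laminin trimer after thinning to 50000 reads, for 299 NCs (red) and 5147 other cells (blue) of all tags, with exact binomial 95% intervals. *ITGA10*, *ITGA2* and *ITGA11* with *ITGB1* are less frequent in NCs, while *ITGA3* with *ITGB1*, *ITGAV* with *ITGB8*, and *LAMA4*, *LAMB2* and *LAMC1* are more frequent.

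The 4 higher genes were rarely all in 1 NC, but *ITGA3* and *ITGB8* were each found in few NCs. The low joint counts below are therefore not read as genes that avoid each other. At 5 or more reads, 113 of 310 NCs (36.5%) had none of the 4, 133 (42.9%) had 1, 55 (17.7%) had 2, 8 had 3 and 1 had all 4. The median number of genes detected rose from 3763 in NCs with none to 4293 in those with 2, so cells with more of them were also better sampled. *ITGA3* was found in 30 NCs and *ITGB8* in 24, and 1 NC had both, which is 3.33% of the first and 4.17% of the second. *LAMA4* and *LAMC1* were found together in 40 NCs, which is 34.2% of the 117 with *LAMA4* and 40.0% of the 100 with *LAMC1*, and *LAMC1* was found in 31.1% of the NCs without *LAMA4*.

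Some NCs contained reads of *SHH*, the hedgehog ligand, of which at least 1 read was also found in 8.20% of other cells. At least 1 *SHH* read was found in 16 of 67 NCs of A951 and 93 of 236 of A952, and the cells with it had a median of 3460 genes against 3775 in A951 and 4560 against 3820 in A952. *ITGA3* was lower in the NCs with *SHH*, at 0.638 against 36.6 rpm in A951 and 9.72 against 34.4 rpm in A952. *LAMC1* was also lower, at 39.9 against 89.5 rpm and 76.9 against 134 rpm. *ITGA2* was higher in the NCs with *SHH*, at 26.8 against 8.93 rpm in A951 and 36.2 against 6.60 rpm in A952. Few cells carried the reads of some of these genes, since 5 NCs held 58.5% of the *ITGA2* reads, 48.1% of the *ITGA3* reads and 42.6% of the *ITGB8* reads in NCs, and 8 of the 67 NCs of A951 had 5 or more reads of *ITGA3*. *ITGA5* was at 558 against 406 rpm and 1396 against 692 rpm. *ITGB8* was lower at 0.958 against 25.2 rpm in A951 and at 10.5 against 15.2 rpm in A952. *ITGB1* and *ITGAV* differed little, with log2 ratios of 0.17 and 0.20 for *ITGB1* and 0.19 and 0.24 for *ITGAV*. With 5 or more *SHH* reads, which left 62 cells against 143 with none in A952 and too few in A951, *ITGA3* was at 13.0 against 34.4 rpm, *LAMC1* at 66.8 against 134 rpm and *ITGA2* at 51.1 against 6.60 rpm.

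The other cells of the 4 tags could be compared without NCs. Of the 29 genes, 21 had less than 2-fold between the highest and the lowest tag, and the median of this ratio was 1.66. The same was not computed for all genes, so these values are not read as a trait of the 29. *ITGA7*, *ITGA10* and *ITGB1* varied little, by 1.07, 1.12 and 1.13 times. The widest ranges were those of *LAMB4*, from 0.459 rpm in A953 to 2.27 rpm in A951, and *LAMB1*, from 2.37 rpm in A954 to 10.5 rpm in A953. In A951 and A952 the differences between NCs and other cells in *ITGA2*, *ITGA10*, *ITGBL1* and *LAMC3* were larger than these ranges. So were those of the higher genes *ITGA3* and *ITGB8*. In A953 the differences in *ITGA10*, *ITGBL1*, *LAMC3*, *ITGA3* and *ITGB8* were smaller than the ranges of *LAMB4* and *LAMB1*.

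Genes that work with integrins and laminins were looked at as 4 lists. In the basement membrane list, 9 of 11 genes analysed passed 1 rpm, 1 was higher and 1 was lower (11.1% each, where 16.6% and 10.9% of all genes were), and the median log2 ratio was 0.03. The higher gene was *NID2*, a nidogen that links laminin to type IV collagen, with 56.1 rpm in NCs and 22.4 in other cells of A951, and 77.7 and 18.0 rpm in A952. The lower gene was *COL4A1*, a type IV collagen chain, with 0.901 and 2.78 rpm in A951 and 0.799 and 1.98 rpm in A952. *HSPG2*, which encodes perlecan and had the most reads of the list, was neither. Of the 12 laminin receptors other than integrins that passed, *SDC2*, a heparan sulfate proteoglycan of the cell surface, was higher, at 4391 and 1106 rpm in A951 and 4864 and 1238 rpm in A952. *SGCA*, a sarcoglycan, was lower, with log2 ratios of -1.73 and -6.41, and the median of this list was 0.05. Each was 8.33% of the list, below the shares of all genes. The 5 NCs of A953 did not show the difference in *SGCA*, with 41.0 against 38.8 rpm, and the 2 NCs of A954 had no read of *NID2*, *COL4A1* or *SGCA*.

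The list of integrin ligands was the one in which most genes were lower. Of 19 genes that passed, 12 were lower (63.2%, where 10.9% of all genes were) and 2 were higher (10.5%, where 16.6% were). The median log2 ratio was -1.99. The higher genes were *THBS2*, with log2 ratios of 2.46 in A951 and 3.34 in A952, and *TGFBI*, with 1.70 and 1.49. *COL2A1*, 1 of the lower genes, is also among the chondrocyte markers below, so the 2 lists are not separate. *COL2A1*, the type II collagen of cartilage, had 1970.0 rpm in NCs and 24502 in other cells of A951, and 962 and 23899 rpm in A952. *COL1A1*, *TNC* and *EDIL3*, which encode a type I collagen chain, tenascin C and a secreted RGD protein, had log2 ratios of -7.05, -4.30 and -3.93 in A951 and -5.94, -4.35 and -3.93 in A952. In the 5 NCs of A953 the differences were smaller for *EDIL3*, at 772 against 1120.4 rpm, *TNC*, at 111 against 379 rpm, and *COL2A1*, at 4563 against 17976 rpm. *FN1*, the fibronectin bound by *ITGA5* and *ITGB1*, lay below other cells by less than 2-fold in A951 and A952, with ratios of -0.36 and -0.35. The few NCs of A953 and A954 also lay below other cells in *FN1*, at 2928 against 4068 rpm and 2704 against 6094 rpm. Of 21 adaptors and kinases that passed, 5 were higher and 1 was lower, with a median of 0.67. These are 23.8% and 4.76%, where 16.6% and 10.9% of all genes were. *LIMS2*, a scaffold of the integrin-linked kinase complex, had log2 ratios of 5.96 and 4.19, *TLN2*, a talin, 3.13 and 2.04, and *CD151*, a tetraspanin that associates with laminin-binding integrins, 2.08 and 2.27. In the few NCs of A953 and A954 *CD151* was also above other cells, whereas *LIMS2* was below them, at 0.441 against 4.40 rpm and 3.80 against 4.84 rpm, and so was *TLN2*, at 2.2 against 7.40 rpm and 0 reads against 4.96 rpm. *PXN*, which encodes paxillin, was the lower gene, with 79.7 and 373 rpm in A951 and 91.0 and 369.6 rpm in A952.

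Markers of other cell types were summed beside these results, since laminins and several integrins are also made by vessels and epithelia. For comparison, 16.6% of all genes were higher and 10.9% lower in NCs. The chondrocyte markers, 10 genes of which 8 were lower and 1 higher, summed to 19941 rpm in NCs and 52907 rpm in other cells of A951, and to 20684 and 51948 rpm in A952, with most reads on *ACAN* in NCs and on *COL2A1* in other cells. The endothelial markers, 9 genes of which 4 passed 1 rpm and 3 were lower, summed to 18.1 and 144 rpm in A951 and 17.1 and 133 rpm in A952, and most of these reads were of *ERG*, with none of the 9 at 0. At least 1 read of *ERG* was found in 73.3% of other cells, so this sum is not read as a measure of endothelial cells. The lower genes were *ERG*, *ESAM* and *EGFL7*. *VWF* had 1.31 rpm in NCs and 1.22 in other cells of A951, and 1.46 and 1.44 rpm in A952. The mural markers, 7 genes of which 1 was lower, summed to 30.5 and 40.5 rpm in A951 and 112 and 39.5 rpm in A952, where *ACTA2* led in NCs, and *CNN1* was at 0 in the NCs of both tags. The epithelial markers, 5 genes of which 2 passed, summed to 31.1 and 4.72 rpm in A951 and 25.9 and 9.44 rpm in A952. *CDH1*, which encodes E-cadherin, had the most reads of them in NCs and was higher with log2 ratios of 4.89 and 2.85, while *CLDN4* was at 0 in the NCs of A951 and *EPCAM* in those of A952. The part of these cell types in the levels of *LAMA4*, *LAMC1*, *ITGA3* and *ITGB8* was not tested.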

How the data were processed

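The members and the lists were chosen with earlier results of these data known. The authors deposited counts of reads per gene and cell, without molecular identifiers, so PCR copies are counted. Per the labels and the methods, reads were aligned with HISAT2 2.2.1 and assigned by strand to genes with featureCounts 2.0.2, with reads of several places or genes allowed, and summed per cell with velocyto. Related genes such as *ITGAM* and *ITGAX* may share reads. The genome build is not given in the sources used here, and no gene lengths were used, so levels are compared within a gene only, and statements on which gene of a list had most reads are on reads, not on transcripts. Of 5723 cells with 1354369622 reads, 42 doublets, 7 cells without a tag and 21 outside 200 to 9000 genes or at 5% mitochondrial reads or more (13 genes) were removed. Kept cells had a median of 198432 reads (24907 to 1290096). Of the counts above 0 of the 35 genes, 32.7% were 1 read. The values of 1 of the genes are not reported here. A second matrix of 1358 cells was not used.

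Levels were pooled per group and tag. In a ratio, fewer than 3 reads were set to 3. Intervals are exact 95% binomial (Clopper-Pearson) or Poisson and cover counting error only. A share of 0 allows 3 cells of the total. Named members are the higher and lower genes, the alpha, beta and laminin genes with most reads, and 4 with the smallest mean log2 ratio among those detected in most cells. From each list up to 4 genes past the rule were named, and *HSPG2* and *FN1* were chosen after their values were seen, as were *ITGA1*, *LAMB1*, *CDH2*, *THBS2*, *TGFBI* and *VWF*. Alternatives were other definitions of NCs and of other cells, no limits on cells, the mean over cells, thinning, leaving out each tag, reads outside the 50 top genes, 1 rpm added, and other filters. Values were computed with pandas 2.3.3, scipy 1.17.1 and numpy 2.4.6 under Python 3.11.15, and the calculation was tested on simulated data.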

Additional observations from a re-analysis of the deposited data

Results flagged for a closer look

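For each of the 35 genes the level in other cells was compared over the 4 tags, and a tag was picked out where its gap to the nearest of the others exceeded Dixon's 95% critical share of the whole range. By the critical value about 1 in 20 groups of 4 alike values would do this, and it happened for 7 of 35 genes. The same count was not made over all genes, so 7 of 35 is not read as a trait of these genes. *ITGA5* was low in A953, at 701 rpm where the median of the tags was 964 rpm, and *ITGAV* was low in the same tag, at 225 rpm with a median of 365 rpm. *LAMC3* was low there too, at 22.5 rpm with a median of 39.3 rpm, and so was *LAMB4*, at 0.459 rpm with a median of 2.14 rpm. *ITGAX* was high in A951, at 0.948 rpm with a median of 0.395 rpm. *ITGBL1* was low in A951, at 108 rpm with a median of 126 rpm. *LAMA2* was high in A952, at 4.44 rpm with a median of 3.03 rpm. 4 of the 7 were thus low values of A953.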

How the results depend on the processing

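*ITGB8*, *ITGA3* and *LAMC1* remained higher and *ITGA2*, *ITGA10*, *ITGBL1* and *LAMC3* remained lower under every alternative in which they passed the filter. *LAMA4* no longer passed the rule under 5 alternatives, and *ITGA11*, *ITGA4* and *ITGB7* under some, the mean over cells among them. With a filter of 5 rpm *ITGB8*, *ITGA3*, *ITGA4* and *ITGB7* were not compared, which left 2 higher genes and a median log2 ratio of -0.20. The median, -0.04 as reported, was -0.11 with 10 or more reads of each of *KRT19* and *TBXT*, -0.12 without other cells that had any read of the 2 genes, -0.13 by the mean over cells, -0.28 relative to reads outside the 50 top genes, and -0.24 without the 1 NC with most reads of the gene in each tag, which was chosen after the data were seen. With the top 50 genes left out, the median of all genes moved from 0.21 to -0.003, the higher and lower shares of all genes to 13.0% and 13.4%, and the members' counts to 3 higher and 9 lower. Leaving out the NC with most reads, and no other cell, lowers NC levels by construction, except where the floor of 3 reads applies, and gave 3 and 10. By the mean over cells 3 of the higher and 4 of the lower genes kept their call. With thinning it was 3 and 5, and with 1 rpm added 3 and 6. Of all genes 11.2%, 10.3% and 9.36% were lower and 16.3%, 16.8% and 15.2% higher in the same order. *LAMB1* became higher and *LAMB3* lower by the mean over cells. With thinning *LAMA3* and *LAMB1* became higher and *LAMA1* lower. Leaving out each tag in turn gave 4 to 6 higher genes, 7 to 10 lower genes and a median of -0.10 to -0.01. Without A951 or A952 1 tag alone had to pass, and 25.4% or 26.1% of all genes were then higher and 15% or 22.3% lower. The causes were not tested. No gene went from higher to lower or from lower to higher. Mean log2 ratios that changed sign without the NC with most reads were those of *LAMB4* (0.72 to -0.28), *LAMA2* (0.29 to -0.06), *LAMB2* (0.05 to -0.07), *ITGA7* (0.01 to -0.05) and, under 1 rpm, *ITGAX* (0.93 to -1.17). Relative to reads outside the top 50 genes *LAMB2*, *ITGA7* and *ITGA6* were at -0.16, -0.20 and -0.08, *LAMB2* was also below 0 with the reads of *KRT19* and *TBXT* added together (-0.01) and without other cells that had any of them (-0.02), and without A951 *ITGA5* was at 0.05, *LAMB2* at -0.04 and *ITGA7* just below 0. Depth limits genes of a few rpm such as *ITGA4*, of which 85.4% of the NCs with any read had 1 read. No pairing by animal was possible because no tag can be assigned to an animal, and NCs were compared with other cells of the same tag.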
